A study of Oryza sativa with 4 samples.

Results

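NAC proteins are plant transcription factors that bind DNA through a conserved N-terminal domain, and the 10 loci described here are rice NAC loci chosen by locus ID for a role in stress and senescence. One of them, LOC_Os04g38720, is the locus the study calls OsNAC2 or OsORE1. A locus counted as listed when the deposited tables of changed transcripts held a row with its ID in the MSU rice annotation. Of the 10 loci, 3 were listed and 7 were not, among 3339 listed items (loci, and single transcripts without an ID) made from 3439 transcripts. Among the listed loci, LOC_Os03g21060 and LOC_Os11g03300 were higher at day 2 and LOC_Os04g38720 was lower.

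RNA was sequenced from wild-type coleoptiles of the rice variety PB1, Pusa Basmati 1. The coleoptile, a sheath that encloses the young shoot of grasses, senesces early in the life of the seedling. The day 2 group held 2 libraries from coleoptiles of seedlings moved to air, at an age of 9 days after germination, and the control group held 2 libraries from coleoptiles grown under water, at an age of 7 days. Per the methods, the control tissue was taken directly after the move to air. Air, age and senescence therefore differ together between the groups and cannot be told apart. The deposited value is 1 FPKM (a count of fragments divided by transcript length and by the number mapped) per transcript and group, the authors' value over both libraries of that group. No difference below has a replicate check, a standard deviation or a test. The study reports the read number of each library, but the number of fragments behind an FPKM is not given. In a bulk tissue, fewer cells that express a gene and less RNA per cell cannot be told apart. No marker list for the coleoptile was at hand, so the labelled tissue was not checked.

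Many NAC genes are switched on by drought, salt, abscisic acid (ABA) or ageing. In Arabidopsis, ORE1 is among the central activators of leaf senescence and acts on genes of chlorophyll breakdown, and its mRNA is cut by the microRNA miR164, which pairs with a site in NAC mRNAs. In rice, OsNAC2 is known for promoting leaf senescence through ABA. NCED enzymes carry out the key step of ABA synthesis, and stay-green proteins start the breakdown of chlorophyll by removing its magnesium. For this reason the values of loci of chlorophyll metabolism and ABA and of the predicted miR164 targets are given after those of the NAC loci.

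The study's small RNA tables hold 3 mature forms of miR164, and its target predictions pair all 3 with the NAC2 locus. They are shown because NAC mRNAs are the known targets of this miRNA family in plants. They are written as DNA letters, 5′ to 3′, with the seed (bases 2 to 8) in capitals.
osa-miR164a: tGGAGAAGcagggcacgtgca
osa-miR164c: tGGAGAAGcagggtacgtgca
osa-miR164d: tGGAGAAGcagggcacgtgc
The 3 forms share 1 seed. Forms a and c, both 21 bases long, differ by 1 substitution, C14T, with form a first and positions counted from 1 at the 5′ end. Form d is form a without its last base, so that its 20 bases all match. The abundance of these miRNAs was not analysed here. The study reports form c as higher and forms a and d as lower during coleoptile senescence. Its discussion, however, also counts 2 miR164 members among upregulated miRNAs. The study also measured the NAC2 locus by quantitative PCR, with the primer pair below, which marks the transcript for which a second kind of measurement was made.
NAC2 forward primer: gaacccggagatctcgtcat
NAC2 reverse primer: gtaatcgctacttcgctaatcg
The PCR values themselves were not used here.

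The NAC2 locus LOC_Os04g38720 had an FPKM of 4.12 at day 2, against 19.5 in control. This gave a log2 ratio (day 2 over control) of -2.24, a value 4.73-fold lower at day 2. Its single listed transcript lies on chromosome 4 from 22994560 to 22996624 in the authors' coordinates on IRGSP-1.0, a span of 2065 bases. In the control coleoptiles the locus stood at the 75.5th percentile of FPKM among all 3339 items, and at day 2 at the 35.2nd. The study's text describes the transcript of this locus as increasing during coleoptile senescence, for its RNA sequencing as well as its quantitative PCR. The deposited FPKM, from the same RNA sequencing, runs opposite to that increase, and the cause of this difference was not tested. The study's text on its network, however, describes the target genes of miR164a as all suppressed, in a passage on downregulated miRNAs. By its predictions this locus is among them. That network kept only targets that ran inversely to their miRNA, and the study's discussion again describes NAC2 as upregulated. In the deposited values, 4 of the 7 predicted targets of miR164a were higher at day 2, 2 were lower and 1 was listed at 0 in control.

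LOC_Os03g21060, which the study's table describes as a no apical meristem (NAC) protein, was the highest listed member at day 2. Its FPKM was 28.7 at day 2, against 3.45 in control, a log2 ratio of 3.06 and 8.34-fold higher. Its single listed transcript spans 2394 bases on chromosome 3, from 11973988 to 11976381. The locus stood at the 79.4th percentile of FPKM at day 2 and at the 55.8th in control.

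LOC_Os11g03300, described as a NAC domain transcription factor, had an FPKM of 5.12 at day 2, against 0.858 in control. The log2 ratio was 2.58, a 5.96-fold higher value at day 2 from a control value under 1 FPKM. Its transcript lies on chromosome 11 from 1233931 to 1235977, a span of 2047 bases. The locus stood at the 40.9th percentile of FPKM at day 2 and at the 34.3rd in control. The beginnings of chromosomes 11 and 12 of rice hold a recent duplication, and the unlisted member LOC_Os12g03040 has an ID from the corresponding end of chromosome 12. Whether reads were shared between these loci was not tested.

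The order of the listed members by FPKM, a measure scaled to transcript length, therefore differed between the groups. At day 2, LOC_Os03g21060 was 6.98 times as high as the NAC2 locus and LOC_Os11g03300 was 1.24 times as high. In control, the NAC2 locus was 5.65 times as high as LOC_Os03g21060 and 22.7 times as high as LOC_Os11g03300. Of the summed FPKM of these 3 loci, 38.0 at day 2 and 23.8 in control, the NAC2 locus held 10.8% at day 2 against 81.9% in control. LOC_Os03g21060 held 75.7% at day 2 against 14.5% in control, and LOC_Os11g03300 held 13.5% at day 2 against 3.61% in control. The summed level thus differed by a factor of 1.60 while the locus with the largest part of it was a different one in each group. All 3 loci had been selected for a difference of at least 4-fold, which favours such a turnover. The unlisted members are not in the sum.

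**Figure D1:**
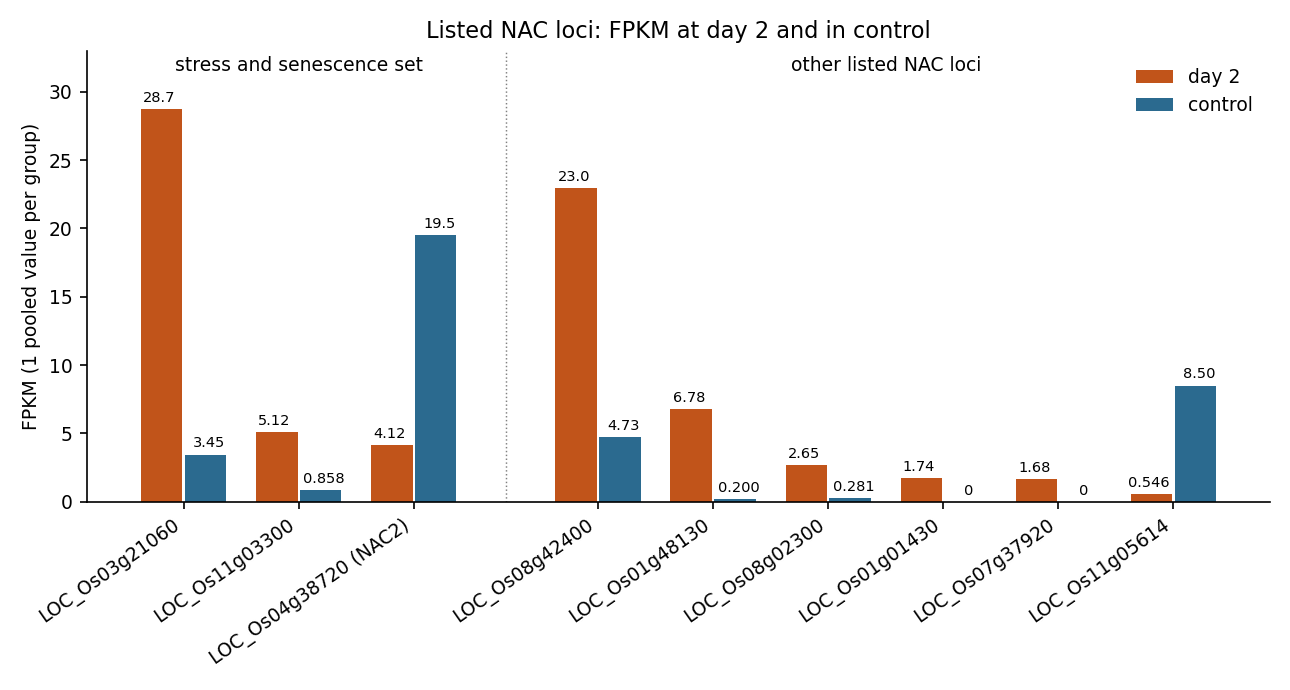
Bars give the FPKM (1 pooled value per group, no error bars) of each listed NAC locus at day 2 (orange, left bar) and in control (blue, right bar), with the value printed above each bar. Among the 3 listed members on the left, LOC_Os03g21060 is highest at day 2 (28.7) and the NAC2 locus is highest in control (19.5). Of the 6 other NAC loci on the right, LOC_Os11g05614 alone has the taller bar in control.

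The differences of the 3 members were set against those of all listed items. Every listed transcript above 0 in both groups had been selected for a change of at least 4-fold, and the smallest absolute log2 ratio was 2.00. A locus was counted as higher or lower here when its absolute log2 ratio was at least 2 and its FPKM at least 1 in at least 1 group. By this rule 56.8% of all 3339 items were higher at day 2, 34.4% were lower, and 7.73% were listed at 0 in control, where no fold can be given. The split of 2 higher and 1 lower among the listed members is close to that of the tables as a whole. Among the 1895 items that were higher, LOC_Os03g21060 stood at the 47.6th percentile of the size of the log2 ratio and LOC_Os11g03300 at the 29.7th. Among the 1150 items that were lower, the NAC2 locus stood at the 17.4th percentile, so it was among those nearer to the selection threshold.

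The other 7 members had no row: LOC_Os03g60080, LOC_Os11g08210, LOC_Os01g66120, LOC_Os06g46270, LOC_Os07g12340, LOC_Os01g60020 and LOC_Os12g03040. They have no value at day 2 or in control, and a missing row does not show that a locus was silent or unchanged. By the study's methods a transcript could be left out for a difference under 4-fold, a low FPKM or a p-value over its limit. The study's count of changed genes adds those specific to day 2 but not those specific to control. A member seen only in control could therefore also be missing. The tables also hold 198 transcripts with no locus ID. To see whether any of these could belong to a missing member, the stretch between the listed loci with the next lower and the next higher ID number was searched. For 6 of the 7 members this stretch, between 66299 and 1330463 bases long, held no transcript without an ID. For LOC_Os01g60020 it held 1, TCONS_00004454 on chromosome 1, from 34738320 to 34746452, with an FPKM of 2.13 at day 2 against 0.124 in control. Whether that transcript belongs to LOC_Os01g60020 was not tested.

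The study's tables describe 6 further listed loci as no apical meristem proteins, so that 9 NAC loci were listed in all. In this wider group 5 loci were higher at day 2, 2 were lower and 2 were listed at 0 in control. The median log2 ratio was 2.58 over the 7 NAC loci above 0 in both groups, beside 2.35 over the 3070 such items of the tables. Each of the 9 loci had 1 transcript, and none overlapped another listed item. The description was available for 2597 of 3141 loci with an ID, since the table that carries it was held only in part. More NAC loci may therefore be listed than the 9 counted here.

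LOC_Os08g42400, on chromosome 8 from 26766815 to 26770335, was the second highest NAC locus at day 2, with an FPKM of 23.0, against 4.73 in control (log2 ratio 2.28). LOC_Os01g48130, on chromosome 1 from 27556026 to 27560681, had 6.78 FPKM at day 2, against 0.200 in control. Its log2 ratio of 5.08 was the largest of the 7 NAC loci with a ratio and rests on a control value far under 1 FPKM. LOC_Os08g02300 had 2.65 FPKM at day 2, against 0.281 in control (log2 ratio 3.23). These 3 loci, like LOC_Os03g21060 and LOC_Os11g03300, were higher at day 2.

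The other lower NAC locus was LOC_Os11g05614, on chromosome 11 from 2550550 to 2552963. Its FPKM was 0.546 at day 2, against 8.50 in control, a log2 ratio of -3.96 and 15.5-fold lower. This fold was larger than that of the NAC2 locus, the control level was lower, and the locus stood at the 81.8th percentile of size among the lower items. LOC_Os01g01430 had an FPKM of 1.74 at day 2 and was listed at 0 in control. LOC_Os07g37920, named ONAC010 in RefSeq, had 1.68 at day 2 and was also listed at 0 in control.

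Over the 9 NAC loci the summed FPKM was 74.4 at day 2 and 37.5 in control, a ratio of 1.98. LOC_Os03g21060 and LOC_Os08g42400 held 38.7% and 30.9% of the sum at day 2, against 9.19% and 12.6% in control. The NAC2 locus and LOC_Os11g05614 held 5.54% and 0.735% at day 2, against 52.0% and 22.7% in control. The number of NAC loci at 1 FPKM or more was 8 at day 2, against 4 in control. The 5 loci under 1 FPKM in control meet the FPKM rule only through their day 2 value, so this count partly follows from the selection. The same count was not made over all items. All items called higher had a median of 1.04 FPKM in control and 11.5 at day 2. Control values near or under 1 FPKM were thus common among higher items and not particular to NAC loci. Items called lower had a median of 38.5 FPKM in control and 4.11 at day 2. By FPKM, the listed NAC transcripts of the control coleoptile were mostly those of 2 loci that were lower at day 2. Those of the day 2 coleoptile were mostly those of 2 loci that were higher. Every listed locus was selected for a difference of at least 4-fold, which favours such a turnover. Unlisted NAC loci are not in these sums, so the shares do not describe all NAC transcripts of the tissue.

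**Figure D2:**
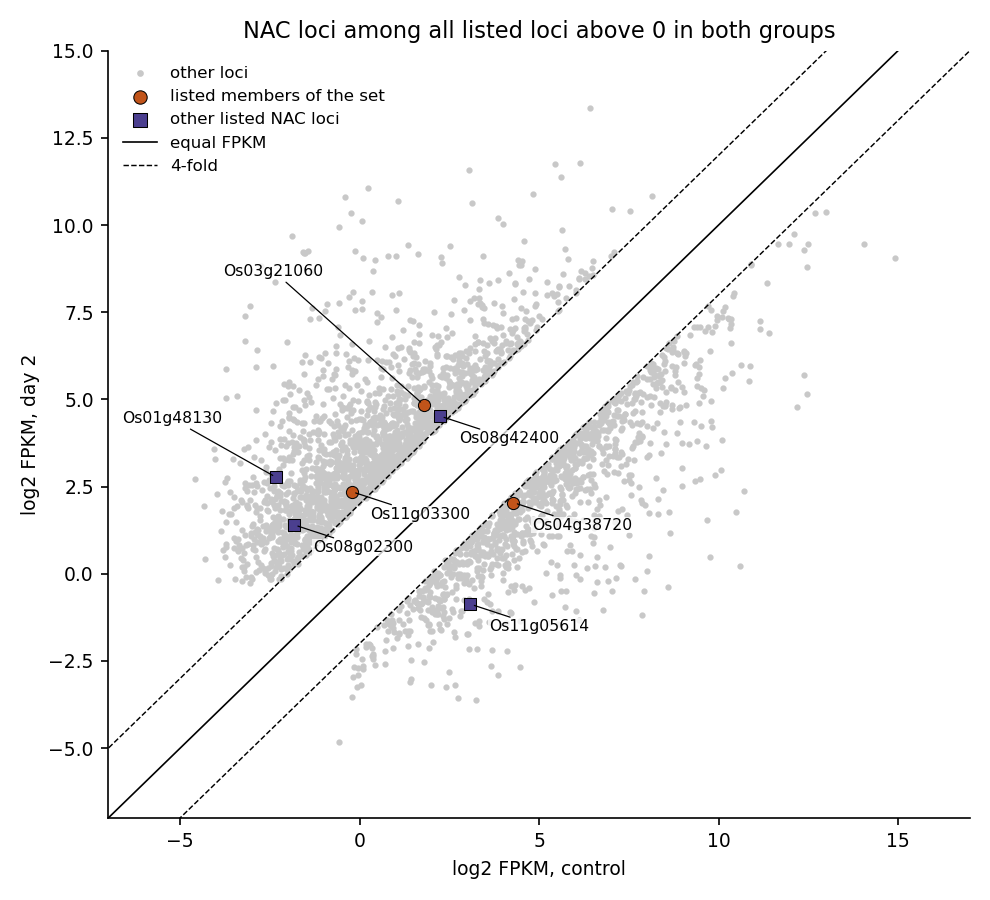
Each point is 1 listed item above 0 in both groups, with its log2 FPKM in control on the horizontal axis and at day 2 on the vertical axis. The solid line marks equal FPKM and the dashed lines a 4-fold difference; the band between them is empty because the tables were selected for change. Members of the set are orange circles, other NAC loci are purple squares, and the 2 NAC loci listed at 0 in control are not drawn. The NAC2 locus Os04g38720 and Os11g05614 lie below the band and the other 5 NAC loci above it.

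None of the 9 NAC loci was among the 183 loci that the study sorted into transcription factor families. Its NAC domain category held 3 other loci, LOC_Os10g41040, LOC_Os06g49060 and LOC_Os08g40420, which its own tables describe as DUF547 or ternary complex factor MIP1 proteins rather than NAC proteins. All 3 were higher at day 2, with 8.01, 1.93 and 7.16 FPKM at day 2, against 1.75, 0.366 and 0.522 FPKM in control. They were not counted as NAC loci here.

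Of the other families with members known from senescence, the study's list held 11 WRKY loci, 24 MYB domain loci and 16 bZIP loci. Higher or listed at 0 in control were 77.8% of the 9 NAC loci, 63.6% of the WRKY loci, 58.3% of the MYB domain loci and 50.0% of the bZIP loci, beside 65.0% of the 183 transcription factors and 64.5% of all items. The numbers of loci are small and the families were not tested against each other, so these shares describe the tables alone. They include loci at 0 in control, while genes specific to control are left out of the study's count of changed genes. The study's list also held 30 AP2/EREBP loci, of which 60.0% were higher or listed at 0 in control, and 6 heat shock factor loci, all of them higher. The NAC loci were thus not the family with the highest share. The lower loci numbered 2 of 9 NAC, 4 of 11 WRKY, 9 of 24 MYB domain, 8 of 16 bZIP and 12 of 30 AP2/EREBP loci.

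**Figure D3:**
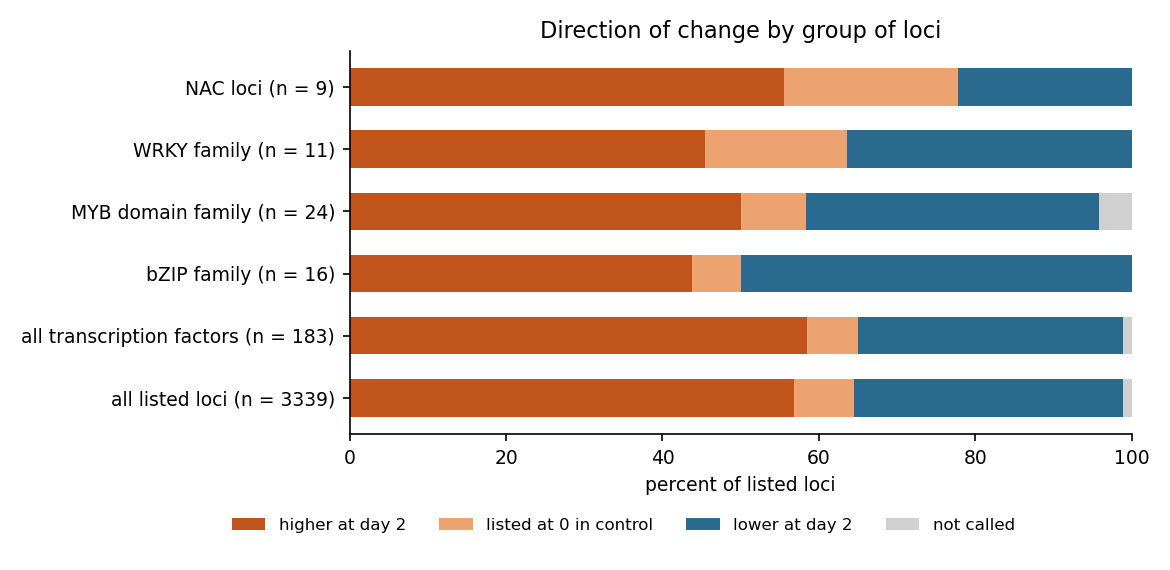
Stacked bars give the percent of listed loci that were higher at day 2 (dark orange), listed at 0 in control (light orange), lower at day 2 (blue) or not called (grey) for each group of loci, with the number of loci beside its name. The 9 NAC loci hold 5 higher, 2 listed at 0 in control and 2 lower loci, and each family bar has both directions.

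By log2 FPKM in both groups, the transcription factors most like the NAC2 locus were the C2H2 zinc finger locus LOC_Os04g02510 and the bZIP locus LOC_Os02g03580. LOC_Os04g02510 had 3.53 FPKM at day 2, against 21.4 in control, and lay at a distance of 0.26 log2 units. LOC_Os02g03580 had 3.82 FPKM at day 2, against 15.9 in control, at a distance of 0.32. Nearest to LOC_Os03g21060 were the heat shock factor locus LOC_Os02g32590, with 31.3 FPKM at day 2 against 4.57 in control (distance 0.43), and the MYB-related locus LOC_Os01g09280, with 26.4 FPKM at day 2 against 5.20 in control (distance 0.61). Nearest to LOC_Os11g03300 were the bZIP locus LOC_Os01g64020, with 4.97 FPKM at day 2 against 0.852 in control (distance 0.04), and the C2H2 locus LOC_Os05g32070, with 5.80 FPKM at day 2 against 0.858 in control (distance 0.18). The likeness rests on 2 values per locus among 171 transcription factors above 0 in both groups.

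Along the chromosomes, the nearest listed items on either side of the 3 members lay between 14423 and 281648 bases away. Of these 6 neighbours, 1 differed in the same direction as its member. All were selected for change, like the items as a whole, of which 56.8% were higher and 34.4% lower. These 6 are too few to set against those shares.

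A small group of loci was taken by words in their descriptions. The words name certain enzymes and proteins of chlorophyll metabolism, or NCED enzymes, a class known from ABA synthesis. It does not cover either pathway, and its count rests on the words chosen. The 6 listed loci of this group were higher at day 2, beside 56.8% of all items, and their median log2 ratio was 3.28. The stay-green locus LOC_Os09g36200 had the largest difference, with 52.8 FPKM at day 2 against 0.611 in control (log2 ratio 6.43). LOC_Os10g25040, described as a red chlorophyll catabolite reductase, an enzyme late in chlorophyll breakdown, had 25.0 FPKM at day 2 against 5.99 in control (log2 ratio 2.06). LOC_Os10g25030, the locus for which the study's primer list gives the name RCC reductase, was not listed.

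The same group held loci of chlorophyll synthesis. LOC_Os04g58200, described as protochlorophyllide reductase A, had 95.5 FPKM at day 2 against 18.4 in control (log2 ratio 2.38). LOC_Os10g41760, described as chlorophyllide a oxygenase, the enzyme that makes chlorophyll b, had 7.84 FPKM at day 2 against 0.898 in control (log2 ratio 3.13). Loci of breakdown and of synthesis were thus both higher at day 2.

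For ABA, 2 loci described as 9-cis-epoxycarotenoid dioxygenase (NCED) were listed. The study likens LOC_Os07g05940 to Arabidopsis NCED9 and LOC_Os02g47510 to Arabidopsis NCED4. Whether both act in ABA synthesis was not tested. LOC_Os07g05940 had 19.7 FPKM at day 2 against 1.82 in control (log2 ratio 3.44). LOC_Os02g47510 had 2.52 FPKM at day 2 against 0.190 in control (log2 ratio 3.73). Both were higher at day 2, as were LOC_Os03g21060 and LOC_Os11g03300, while the NAC2 locus was lower. The wider abscisic acid category of the study, counted after the values were seen, held 16 loci with both NCED loci among them, and its loci differed in both directions. In it 12 loci were higher at day 2 and 4 were lower, with a median log2 ratio of 3.22, beside 2.35 over all items with a ratio. Higher or listed at 0 in control were 75% of these loci, beside 64.5% of all items, and the difference was not tested. The 4 lower loci were LOC_Os02g42430, LOC_Os04g44500, LOC_Os04g44510 and LOC_Os10g34730, with log2 ratios of -4.31, -3.23, -2.99 and -2.26. The study's tables liken them to Arabidopsis GRAM domain proteins related to ABA response. LOC_Os12g29400, likened to the same kind of protein, was higher, with 272 FPKM at day 2 against 23.4 in control (log2 ratio 3.54). Loci of this kind thus differed in both directions. Among the higher loci were 3 described as aldehyde oxidases, the enzyme class of the last step of ABA synthesis, of which LOC_Os07g18120 had the highest level, with 84.0 FPKM at day 2 against 10.99 in control.

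**Figure D4:**
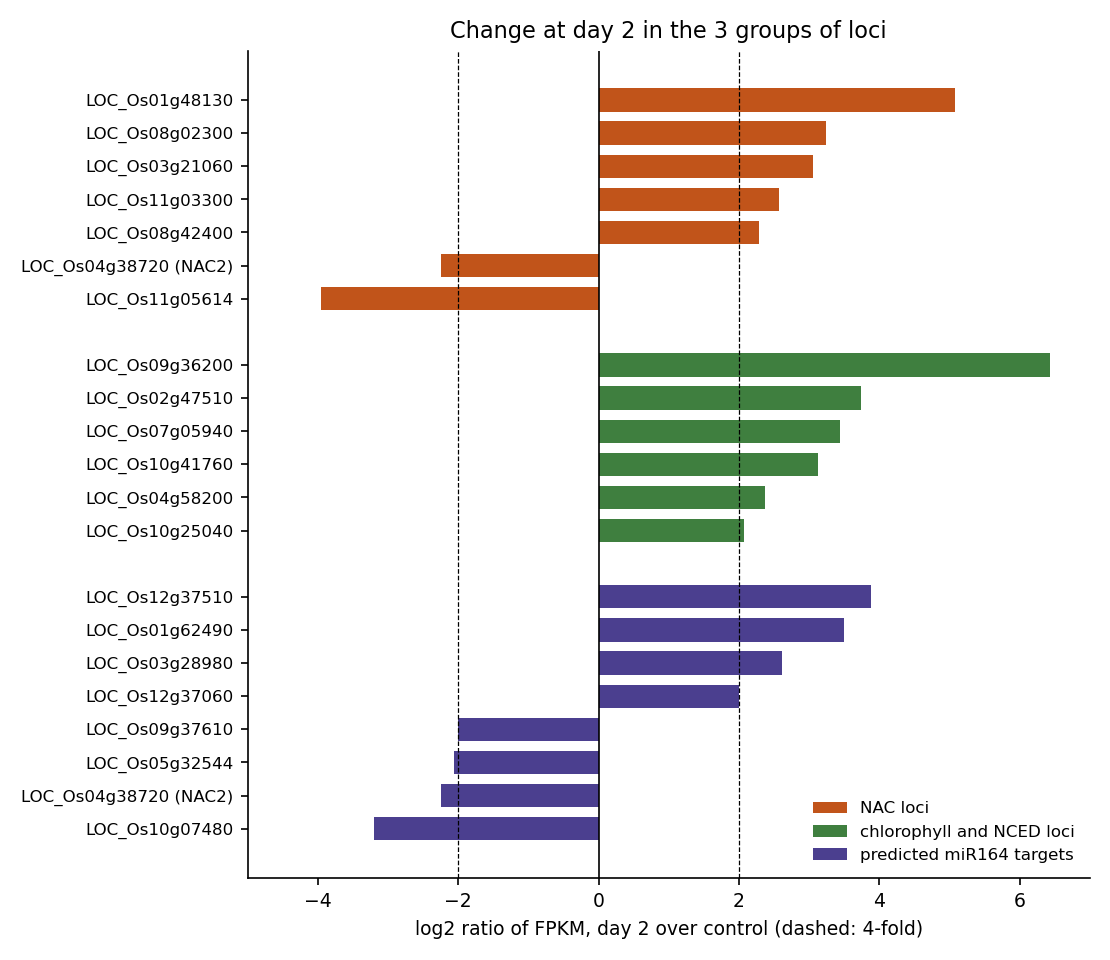
Horizontal bars give the log2 ratio of FPKM, day 2 over control, for the NAC loci (orange), the chlorophyll and NCED loci (green) and the predicted miR164 targets (purple), with dashed lines at a 4-fold difference. Loci listed at 0 in control have no ratio and are not drawn, and the NAC2 locus appears in 2 groups. The 6 chlorophyll and NCED bars point to higher values at day 2, while the NAC loci (5 higher, 2 lower) and the miR164 targets (4 higher, 4 lower) point both ways.

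The study's table gives 10 loci as predicted targets of the miR164 forms shown above, and the NAC2 locus was the 1 NAC locus among them. Of the 10 loci, 4 were higher at day 2, 4 were lower and 2 were listed at 0 in control. The share that was higher or listed at 0 in control was 60%, close to the 64.5% of all items. The median log2 ratio of the 8 loci with a ratio was 0.00, beside 2.35 over all items. It falls between middle values of 2.00 and -2.00, so it reflects the even split and not an unchanged level. All 263 loci in the study's table of predicted targets were listed, so predicted targets with no listed difference are not counted here.

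All 3 forms were paired with 4 of the loci. Of these, the NAC2 locus and the glycosyltransferase locus LOC_Os05g32544 were lower, and LOC_Os05g32544 had 13.9 FPKM at day 2 against 57.7 in control. The other 2 were higher. LOC_Os12g37510, described as a UDP-glucosyl transferase, had 22.6 FPKM at day 2 against 1.53 in control. LOC_Os12g37060, of unnamed function, had 96.3 FPKM at day 2 against 24.0 in control, with a log2 ratio of 2.00 at the selection threshold. Loci paired with the same 3 miRNAs thus differed in both directions.

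Forms a and d alone were paired with 3 loci. The laccase locus LOC_Os01g62490 had 12.2 FPKM at day 2 against 1.08 in control. LOC_Os03g28980 had 5.67 FPKM at day 2 against 0.927 in control, and LOC_Os05g51240, a putative hydrolase, had 3.54 at day 2 and was listed at 0 in control. No locus of these 3 was lower at day 2, beside 34.4% of all items. Form c alone was paired with the remaining 3, of which 2 were lower. With 3 loci each, the groups are too small to set against that share or each other. A link to the miRNAs was not tested. LOC_Os10g07480 had 6.37 FPKM at day 2 against 58.6 in control, the MATE efflux locus LOC_Os09g37610 had 4.07 at day 2 against 16.3 in control, and LOC_Os10g36960 had 1.75 at day 2 and was listed at 0 in control.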

How the data were processed

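Per the methods, the authors filtered the reads with NGS QC Toolkit, mapped them with TopHat to IRGSP-1.0, assembled transcripts with Cufflinks and Cuffmerge, and compared the groups with Cuffdiff. The deposited unit is FPKM, 1 value per transcript and group, computed by the authors over both libraries. The authors kept transcripts past a 4-fold difference and a p-value limit, together with those specific to day 2. Genes specific to control are not in their count of changed genes. The number of fragments behind a value is not given, so its precision is unknown.

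The 2 tables were joined by transcript, spaces around locus IDs were removed, and FPKM was summed per locus. Log2 ratios are day 2 over control, without a pseudocount. A locus was higher or lower at an absolute log2 ratio of 2 or more with FPKM of 1 or more in at least 1 group. The counting was tested on simulated data. Python 3.11.15, pandas 2.3.3 and numpy 2.4.6 were used.

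The named loci were all 10 members, every other listed locus described as a NAC protein, the loci of the study's NAC domain category, the listed loci whose description held one of a few words for chlorophyll metabolism or NCED enzymes, the predicted miR164 targets, and for each listed member the 2 nearest transcription factors of the study's list. The transcripts around missing members, the abscisic acid category and the AP2/EREBP and heat shock factor families were taken up after the values were seen. Members and lists were chosen with earlier results of these data known. Descriptions, target pairs, primers and miRNA sequences came from the study's supplementary tables, and no values were taken from them. All 9 listed NAC loci matched an entry of the RefSeq gene table (assembly ASM3414082v1), 8 by gene number and 1 by name, and 2 of the entries carry a NAC name. RefSeq coordinates were not used.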

Additional observations from a re-analysis of the deposited data

How the results depend on the processing

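The median kept its sign under 8 alternatives and the log2 ratios of the 7 single loci under the 4 run for them (2 pseudocounts and 2 factors). Of 56 list values, 39 stayed (counts within 1.5 times, medians within 0.1) and 17 moved. With a pseudocount of 1, 1 member and 3 NAC loci were higher and the median log2 ratio of the NAC loci was 1.51, and with 0.1 the median was 2.85, both over 9 loci. With FPKM 1 required in both groups, 1 member, 2 NAC loci and 3 chlorophyll and NCED loci were higher, 1 NAC locus was lower, and the median was 2.28. With FPKM 5 in at least 1 group the median was 2.43. With the day 2 values divided by 2, 1 member, 3 NAC loci and 2 predicted miR164 targets were higher and the median was 1.58. With the day 2 values multiplied by 2, 0 members and 1 NAC locus were lower and the median was 3.58. The NAC2 locus had a log2 ratio of -1.24 under that factor, and -2.00 with a pseudocount of 1. LOC_Os11g03300 had 1.58 with day 2 divided by 2 and 1.72 with a pseudocount of 1, and was left out where FPKM 1 was required in both groups. LOC_Os03g21060 kept a ratio of 2.06 or more under each pseudocount and factor. These changes follow from the alternatives' own construction. No paired analysis was possible because each column holds 1 pooled value per group, and for the same reason no replicate could be left out and no limma fit was run.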
